A study of Mus musculus with 4 samples.

Results

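The genes described are 10 components of the basement membrane: the laminin chain genes Lama2, Lama4, Lama5, Lamb1, Lamb2 and Lamc1, the nidogen genes Nid1 and Nid2, and the proteoglycan genes Hspg2 (perlecan) and Agrn (agrin). They were taken by symbol from the gene lists of the deposited matrices, which hold 28001 features, and all 10 were found in each of the 4 libraries. The libraries are droplet single-cell RNA sequencing of reporter-positive cells sorted from mouse hearts. The 1st is Hic1 CreERT2 tdTomato+ cells, strain C57BL/6, from 3 pooled hearts 7 days after ligation of the left anterior descending (LAD) coronary artery, a model of myocardial infarction. The 2nd is Hic1 CreERT2 tdTomato+ cells of the same strain from 3 pooled undamaged hearts. The 3rd is Hic1 Citrine+ cells, C57BL/6, from 3 undamaged hearts, each tagged with its own antibody hashtag. The 4th is PDGFRa H2BEGFP+ cells (B6.129S4-Pdgfratm11(EGFP)Sor/J) from 4 hashed hearts, 2 of them undamaged and 2 taken 7 days after ligation, and the labels do not tie a hashtag to a condition. Each library is thus 1 sample. The tdTomato mark needs Cre activity under Hic1 at induction and is kept afterwards, so these libraries hold a labelled mesenchymal fraction of the heart and not all its cells, and the ages of the mice are not given in the labels.

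A basement membrane is the thin sheet of matrix on which vessels, muscle fibres and epithelia rest. Laminins are trimers of 1 alpha, 1 beta and 1 gamma chain that polymerise on the cell surface and start the sheet, and the alpha chain sets which receptors the trimer binds. Lama2 encodes the main alpha chain around muscle cells and its loss causes muscular dystrophy, whereas Lama4 and Lama5 encode the alpha chains typical of vessel walls. Lamb1 and Lamb2 encode alternative beta chains, and Lamc1 the gamma chain that most trimers share. Nidogens link the laminin network to collagen IV. Perlecan is a heparan sulfate proteoglycan that holds growth factors, and agrin is one that binds laminin and alpha-dystroglycan and is best known for clustering acetylcholine receptors at the neuromuscular junction. Pericytes and vascular smooth muscle cells (together, mural cells) lie within or beside the vascular basement membrane, while fibroblasts lie in the interstitium between.

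On the GRCm38 build the members lie on 8 chromosomes as single protein-coding genes. Lama2 spans chr10:26980036-27619758 and Lama4 chr10:38965515-39110188, and Lama5 spans chr2:180176373-180225859. Lamb1 lies at chr12:31265234-31329644, Lamb2 at chr9:108479736-108490530 and Lamc1 at chr1:153218922-153332786. Nid1 lies at chr13:13437551-13512269 and Nid2 at chr14:19751265-19811787. Hspg2 (chr4:137468769-137570630) and Agrn (chr4:156165290-156197488) share a chromosome without being neighbours. Nid2 overlaps Rtraf on the other strand and Lama2 overlaps 4930579H20Rik, and whether the counting used the strand is not given in the sources used here. The other 8 members overlap no other gene of the files.

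RefSeq promoter windows of GRCm38.p6, from 250 bases before to 50 bases after the start of transcription, were matched for 7 of the 10 members. The windows of Lamb1, Lamb2 and Lama5 are shown because the levels of these 3 chains set smooth-muscle-like cells apart in the values that follow. Capitals mark the GC box, GGGCGG on either strand.
Lamb1, chr12:31265043-31265342, plus strand: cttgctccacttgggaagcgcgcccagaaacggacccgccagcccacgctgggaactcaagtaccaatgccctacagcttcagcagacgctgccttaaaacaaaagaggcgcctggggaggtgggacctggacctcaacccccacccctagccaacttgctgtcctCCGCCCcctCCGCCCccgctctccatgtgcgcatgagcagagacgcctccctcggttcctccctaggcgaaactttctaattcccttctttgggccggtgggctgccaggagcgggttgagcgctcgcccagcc
Lamb2, chr9:108479612-108479911, plus strand: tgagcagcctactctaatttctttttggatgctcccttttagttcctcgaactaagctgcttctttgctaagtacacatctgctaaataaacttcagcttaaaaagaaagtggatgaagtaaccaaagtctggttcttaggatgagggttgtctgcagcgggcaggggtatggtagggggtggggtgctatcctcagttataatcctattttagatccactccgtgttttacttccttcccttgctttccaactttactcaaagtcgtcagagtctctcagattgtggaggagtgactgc
Lama5, chr2:180225810-180226109, minus strand: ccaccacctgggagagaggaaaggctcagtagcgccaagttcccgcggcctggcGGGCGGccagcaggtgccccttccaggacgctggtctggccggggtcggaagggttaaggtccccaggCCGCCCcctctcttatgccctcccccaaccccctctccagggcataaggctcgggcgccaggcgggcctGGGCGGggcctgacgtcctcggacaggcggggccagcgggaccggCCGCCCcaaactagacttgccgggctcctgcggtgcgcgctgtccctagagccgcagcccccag
The Lamb1 window held 2 GC boxes and 63.7% G and C, and the Lama5 window held 4 GC boxes and 72.7%. The Lamb2 window held 0 GC boxes and 44.0% G and C. A GC box was present in 35.7% of 32851 promoter windows of the same length, whose median G and C content was 52.7%. None of these 3 windows held TATAAA (13.6% of windows), the MCAT motif CATTCC (14.7%), a CArG box (1.63%) or the E box CACGTG (7.15%), each searched on both strands. Of the other windows, Lama2 held 1 CArG box and Nid1 held 1 CATTCC. These are letter matches only.

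After filters, 4263 of 4292 barcodes were kept in the tdTomato library 7 days after LAD ligation, 2786 of 2853 in the undamaged tdTomato library, 10838 of 11338 in the citrine library and 12567 of 13830 in the PDGFRa library. The median UMIs (counted molecules) per kept cell were 3668, 3453, 8038.5 and 7729 in that order. The tdTomato libraries shared 8 cell barcodes, the citrine and PDGFRa libraries 35, and the other pairs 0 to 2. Cells were clustered without the members and classed from marker genes, so that class names end in "-like". Pericyte-like cells (Rgs5, Kcnj8, Vtn) numbered 798 in the LAD library, 175 in the undamaged tdTomato library and 219 in the citrine library. Smooth-muscle-like cells (Myh11, Lmod1) numbered 319 in the LAD library and 169 in the undamaged tdTomato library, and no such cluster was found in the other 2 libraries. Rgs5 was higher in smooth-muscle-like than in pericyte-like cells of both tdTomato libraries, so it does not tell these classes apart. Fibroblast-like cells (Pdgfra, Dcn) numbered 3126 in the LAD library, 2373 in the undamaged tdTomato library, 10571 in the citrine library and 12471 in the PDGFRa library.

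Levels are given as CPM: the UMIs of the gene summed over the cells of a class, divided by all UMIs of that class and scaled to a total of 1e6. They are 3′ tag counts and are not scaled by gene length, so they are compared between classes and not between genes. A gene is called higher or lower when the ratio of 2 sums is past 1.5-fold with at least 20 UMIs over both. Ratios carry exact 95% intervals that cover counting error only, and with 1 library a group such ratios have no replicate check and no p-value.

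Markers of other classes were present in the mural sums, and their part in the results below was not tested. The 10 fibroblast markers summed to 7997 CPM in pericyte-like cells, 2785 in smooth-muscle-like cells and 47590 in fibroblast-like cells of the LAD library. The same sums were 7633, 3832 and 86360 CPM in the undamaged tdTomato library. In the citrine library they were 24410 CPM in pericyte-like and 60830 CPM in fibroblast-like cells. All 10 of these markers were detected in every sum. Part of that signal sat in few, deep barcodes. Mural cells in which the Dcn share exceeded 10% of the share over fibroblast-like cells of their library numbered 42 of 798 in the LAD pericyte-like class and held 10.8% of its UMIs. In the citrine pericyte-like class they numbered 53 of 219 and held 49.4% of its UMIs, with a median of 9414 UMIs per cell against 2828 in the rest. Values without them are given where they moved a call or a ratio most. Shares of all genes are given for all cells only. The 8 endothelial markers summed to between 1115 and 2011 CPM in mural sums and between 27.4 and 35.6 CPM in fibroblast-like sums. In the mural sums nearly all of it was Fabp4, and the defining markers Cldn5 and Cdh5 stood at 0 and at no more than 0.423 CPM in the mural sums of the tdTomato libraries. In citrine pericyte-like cells Cdh5 stood at 31.65 CPM and Cldn5 at 5.59 CPM.

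**Figure D1:**
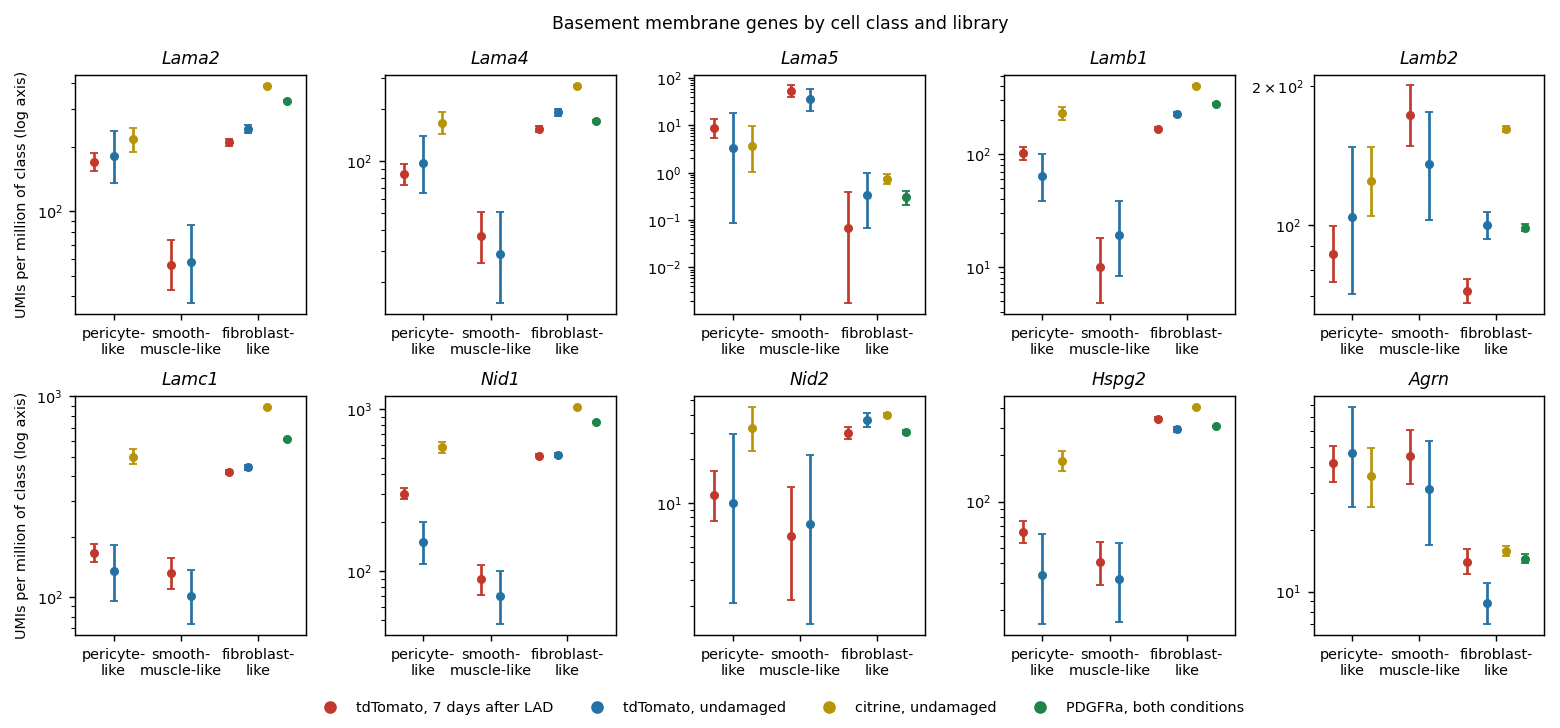
Level of each member, in CPM on a log axis, by cell class (x axis) and library (colour), with exact 95% counting intervals as bars. Lamb1 in smooth-muscle-like cells stood at 9.90 and 19.3, below all other classes, while Lama5 in smooth-muscle-like cells stood at 53.5 and 36.3, above all others.

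Most members were lower in pericyte-like than in fibroblast-like cells, and agrin was higher. In the LAD library 2 of 10 measured members were higher and 6 lower, against 26.9% and 18.6% of all 11913 genes. In the undamaged tdTomato library 1 of 9 was higher and 6 lower, against 32.2% and 18.3% of all genes, and in the citrine library 2 of 10 were higher and 6 lower, against 22.3% and 13.9%. The median log2 ratio of the members was -0.76, -1.72 and -0.76 in these 3 libraries, beside 0.21, 0.20 and 0.06 over all measured genes.

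Among the alpha chains, Lama2 had 170.1 CPM in pericyte-like and 210.5 CPM in fibroblast-like cells after LAD ligation (ratio 0.808, 95% interval 0.727 to 0.897). It had 181.3 CPM in pericyte-like and 242.6 CPM in fibroblast-like cells of undamaged tdTomato hearts, and 216.9 and 384.0 CPM in those classes of citrine hearts. The muscle-type alpha chain was thus lower in pericyte-like cells in each library but past 1.5-fold only in the citrine one (ratio 0.565). Lama4, the alpha chain that endothelial and mural cells share, had 83.4 CPM in pericyte-like and 152.4 CPM in fibroblast-like cells after ligation (0.547, 0.471 to 0.633). The Lama4 ratio was 0.510 in undamaged tdTomato hearts and 0.615 in citrine hearts, so it was called lower in all 3 libraries. Lama5 was scarce in both classes. It was counted 21 times in pericyte-like cells of the LAD library and 1 time in its 3126 fibroblast-like cells, that is 8.89 against 0.0693 CPM (128-fold, 20.6 to 5301). In the citrine library Lama5 was counted 4 times in pericyte-like and 69 times in fibroblast-like cells, 3.72 against 0.728 CPM (5.11-fold, 1.36 to 13.7).

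The beta chains differed from each other. Lamb1 had 101.5 CPM in pericyte-like and 169.2 CPM in fibroblast-like cells after ligation, a ratio of 0.60 (0.523 to 0.686). In undamaged tdTomato hearts Lamb1 had 63.8 CPM in pericyte-like and 228.6 CPM in fibroblast-like cells (0.279, 0.168 to 0.437). Lamb2, the beta chain of synapses, kidney filters and arterial walls, did not pass 1.5-fold in any of the 3 libraries. It had 86.7 CPM in pericyte-like and 72.0 CPM in fibroblast-like cells after ligation (1.21, 1.03 to 1.4), and 104.1 and 99.8 CPM in those classes of undamaged tdTomato hearts (1.04, 0.704 to 1.49). Citrine hearts had 124.8 CPM of Lamb2 in pericyte-like and 161.8 CPM in fibroblast-like cells (0.771, 0.645 to 0.914). Lamc1, the shared gamma chain, was lower in pericyte-like cells throughout, with ratios of 0.393 in the LAD library, 0.303 in the undamaged tdTomato library and 0.567 in the citrine library.

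The linker Nid1 and perlecan were lower as well. Nid1 had 301.3 CPM in pericyte-like and 516.7 CPM in fibroblast-like cells after ligation (0.583, 0.539 to 0.630). In undamaged tdTomato hearts Nid1 had 151.1 CPM in pericyte-like and 523.9 CPM in fibroblast-like cells (0.288, 0.210 to 0.386). Nid2, the less abundant nidogen in these tag counts, had ratios of 0.382, 0.274 and 0.824 in the LAD, undamaged tdTomato and citrine libraries, the second on 3 UMIs in pericyte-like cells. Hspg2 had the lowest ratio of all members in each library: 0.186 (0.157 to 0.218) after ligation, 0.114 (0.0548 to 0.211) in undamaged tdTomato hearts and 0.450 (0.389 to 0.518) in citrine hearts. Agrn ran the other way. It had 41.9 CPM in pericyte-like and 14.0 CPM in fibroblast-like cells after ligation (2.99-fold, 2.33 to 3.82). In undamaged tdTomato hearts Agrn had 47.0 CPM in pericyte-like and 8.79 CPM in fibroblast-like cells (5.35-fold, 2.80 to 9.52), and citrine hearts had 36.3 and 15.75 CPM in those classes (2.31-fold, 1.63 to 3.17).

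**Figure D2:**
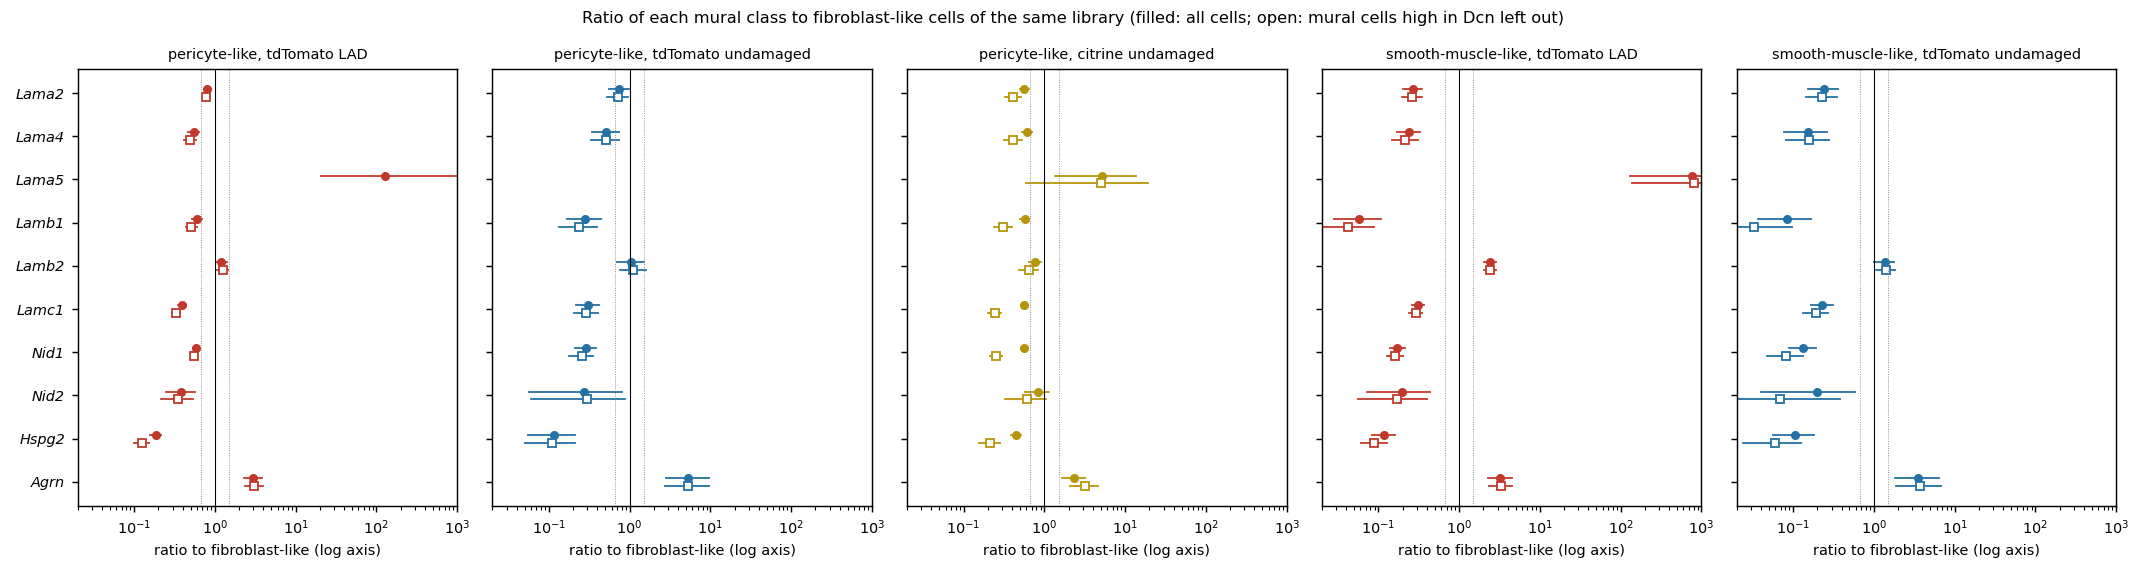
Ratio of pericyte-like or smooth-muscle-like to fibroblast-like CPM for each member with at least 20 UMIs (log axis), with exact 95% counting intervals, some of which run past the axis; filled circles are all cells, open squares leave out mural cells high in Dcn, and dotted lines mark 1.5-fold either way. With all cells, Agrn lies right of 1 in every panel (2.31 to 5.35) and Hspg2 left of it (0.107 to 0.450).

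With the mural cells high in Dcn left out, the class differences were wider in the citrine library. Those cells were chosen by a fibroblast marker and also had more Pdgfra, 291.8 CPM against 12.9 CPM in the rest. Leaving them out moves the sum away from fibroblast-like levels by selection. The wider differences are thus a description and no separate test. In the citrine library 8 members were then lower and 2 higher. The 2 higher were Agrn and Lama5, the latter on 2 UMIs in the pericyte-like cells left. The shares of all genes given above are for all cells. The log2 ratios were -1.98 for Nid1, -2.03 for Lamc1, -2.24 for Hspg2 and -1.69 for Lamb1, while Agrn was at 1.66. Within the citrine pericyte-like class, Nid1 had 913.2 CPM in the 53 cells high in Dcn and 261.5 CPM in the rest. Hspg2 had 282.4 CPM in the cells high in Dcn and 86.6 CPM in the rest. Agrn had 22.6 CPM in the cells high in Dcn and 49.7 CPM in the rest, the opposite order.

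The citrine library is the only one in which the class difference could be tested over animals, since hashtags assign cells to 3 hearts. Pericyte-like cells numbered 14, 187 and 14 in hearts 1, 2 and 3, and fibroblast-like cells 1369, 3082 and 2342. In edgeR's quasi-likelihood test with the heart as a block and Benjamini-Hochberg adjustment over 11408 genes, 4.05% of genes were higher and 6.07% lower in pericyte-like cells. Of the 9 members tested, 0 were higher and 6 lower after the same adjustment. At an unadjusted p under 0.05 the counts were 1 and 7, for which the share of all genes was not counted. The median log2 fold change was -1.19 over the members and -0.20 over all genes tested. The fibroblast marker Dcn differed between hearts in pericyte-like cells. It stood at 593.1, 8577 and 6031 CPM in pericyte-like cells of hearts 1, 2 and 3, against 21690, 22050 and 20260 CPM in fibroblast-like cells. With the cells high in Dcn left out, 6 members were again lower and 0 higher in the same test. That run is not independent support, since the cells were left out by a fibroblast marker.

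Nid1 had 95.7, 608.1 and 571.4 CPM in pericyte-like cells of hearts 1, 2 and 3, against 920.6, 957.6 and 946.7 CPM in fibroblast-like cells. The classes did not overlap, heart 1 was low for pericyte-like cells, and Nid1 fell by 1.5 on the log2 scale (SE 0.25, adjusted p = 9.082e-08 by edgeR). Lamc1 had 287.0, 519.2 and 304.7 CPM in pericyte-like cells of hearts 1, 2 and 3, against 782.7, 859.1 and 806.9 CPM in fibroblast-like cells. It was lower in pericyte-like cells of every heart, with a log2 fold change of -1.43 (SE 0.251, adjusted p = 4.371e-07 by edgeR). Hspg2 had 19.1, 172.3 and 279.3 CPM in pericyte-like cells of hearts 1, 2 and 3, against 339.8, 419.4 and 426.9 CPM in fibroblast-like cells. Again the classes were apart and heart 1 was lowest, on 1 UMI, and the log2 fold change was -1.63 (SE 0.286, adjusted p = 4.04e-07 by edgeR).

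Lama2 fell by 1.52 on the log2 scale (SE 0.29, adjusted p = 5.1e-06 by edgeR), with 114.8, 232.3 and 88.9 CPM in pericyte-like cells of hearts 1, 2 and 3. Fibroblast-like cells of the same hearts had 327.0, 381.7 and 375.8 CPM of Lama2. Lamb1 fell by 1.12 (SE 0.274, adjusted p = 0.00078 by edgeR), with 210.5, 231.2 and 203.2 CPM in pericyte-like cells, against 337.3, 410.9 and 393.5 CPM in fibroblast-like cells. Lama4 fell by 1.19 (SE 0.297, adjusted p = 0.0012 by edgeR), with 19.1, 172.3 and 190.5 CPM in pericyte-like cells, against 237.7, 270.0 and 256.1 CPM in fibroblast-like cells. The Lama4 call rests on heart 1: without it the log2 fold change was -0.78 and the adjusted p by edgeR was 0.175. DESeq2 gave the Lama4 and Lamb1 differences adjusted p-values of 0.189 and 0.0708, so these 2 calls were lost with that tool.

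Agrn was higher in pericyte-like cells of 3 of 3 hearts without passing the test. It had 38.3, 38.9 and 25.4 CPM in pericyte-like cells of hearts 1, 2 and 3, against 14.8, 15.8 and 13.8 CPM in fibroblast-like cells. Hearts 1 and 3 gave only 2 UMIs of Agrn each in pericyte-like cells. Their counting intervals, 4.6 to 138.2 and 3.1 to 91.7 CPM, held the fibroblast-like values. The log2 fold change was 0.98 (SE 0.493, adjusted p = 0.245 by edgeR). Without the heart as a block the Agrn difference passed (1.11, adjusted p = 0.00799 by edgeR). Lamb2 stood 0.71 lower on the log2 scale at an adjusted p of 0.149 by edgeR, and without the block it passed as well (-0.63, adjusted p = 0.0179 by edgeR). Nid2 gave -0.21 at an adjusted p of 0.910, with a sign that depended on which heart was left out. Lama5 was too scarce to enter the test.

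**Figure D3:**
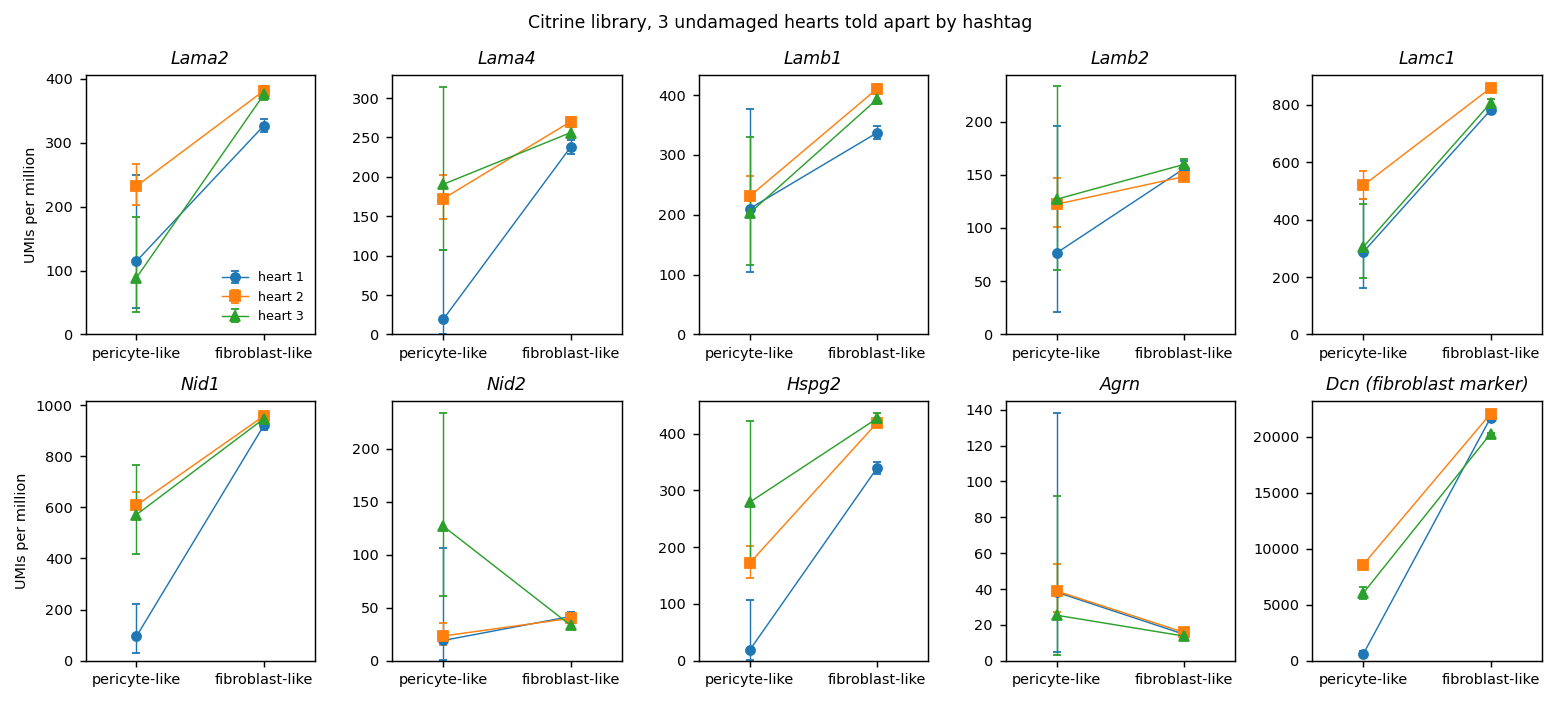
CPM of 9 members (without Lama5) and of the fibroblast marker Dcn in pericyte-like (left) and fibroblast-like (right) cells of the 3 citrine hearts, joined within each heart, with exact 95% counting intervals. Nid1, Lamc1 and Hspg2 run upward from left to right in each heart, Agrn downward, and Dcn in pericyte-like cells differs between hearts from 593.1 to 8577 CPM.

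Smooth-muscle-like cells had a narrower laminin set, with little Lamb1, Lama2 and Lama4. Their Lama5 and Lamb2 were the highest of the 3 classes in each tdTomato library. The Lamb2 difference from pericyte-like cells was called only after ligation and was lost at a limit of 5% mitochondrial UMIs. Against fibroblast-like cells of the LAD library 3 of 10 measured members were higher and 7 lower (22.5% and 26.8% of all 11754 genes). Against those of the undamaged tdTomato library 1 of 9 was higher and 7 lower (23.3% and 27.5%). The median log2 ratios of the members were -1.98 after ligation and -2.34 in undamaged hearts, beside -0.06 and -0.14 over all measured genes.

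Lama5, the alpha chain of mature vessel walls and many epithelia, was counted 54 times in 319 smooth-muscle-like cells after ligation and 1 time in the 3126 fibroblast-like cells. That is 53.5 against 0.0693 CPM, a ratio of 771 with an interval of 133 to 31010 set by the single count. In undamaged hearts Lama5 was counted 15 times in 169 smooth-muscle-like cells and 3 times in 2373 fibroblast-like cells, 36.3 against 0.338 CPM (107-fold, 30.4 to 578), which is under the 20 UMIs needed for a call. Lamb2 had 173.2 CPM in smooth-muscle-like and 72.0 CPM in fibroblast-like cells after ligation (2.41-fold, 2.04 to 2.83). At a limit of 5% mitochondrial UMIs its log2 ratio was 0.77, down from 1.27. In undamaged hearts it had 135.4 CPM in smooth-muscle-like and 99.8 CPM in fibroblast-like cells (1.36-fold, 1.02 to 1.78), higher but short of 1.5-fold. Lamb1 was almost missing from this class, with 10 UMIs after ligation and 8 in undamaged hearts. Its levels were 9.90 CPM in smooth-muscle-like and 169.2 CPM in fibroblast-like cells after ligation (0.0585, 0.0280 to 0.108), and 19.3 and 228.6 CPM in those classes of undamaged hearts (0.0846, 0.0365 to 0.167). In undamaged hearts 5 of the 8 Lamb1 UMIs lay in 3 cells high in Dcn, and without those cells Lamb1 had 7.55 CPM in smooth-muscle-like cells (0.0331, 0.00681 to 0.0967).

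Agrn was higher in smooth-muscle-like than in fibroblast-like cells, 3.25-fold after ligation (2.31 to 4.50) and 3.58-fold in undamaged hearts (1.82 to 6.48). Hspg2 had ratios of 0.118 and 0.107, Nid1 of 0.172 and 0.134, and Lamc1 of 0.312 and 0.229, in each case after ligation and then in undamaged hearts. Without the 3 cells high in Dcn, the ratios in undamaged hearts were 0.0817 for Nid1 and 0.060 for Hspg2. Lama2 stood at 0.268 after ligation and 0.239 in undamaged hearts, and Lama4 at 0.240 and 0.152. Nid2 stood at 0.198 after ligation, on 6 UMIs in smooth-muscle-like cells, and at 0.198 in undamaged hearts, on 3 UMIs. Perlecan, the nidogens, the gamma chain and both abundant alpha chains were therefore lower in both libraries, Nid2 on few UMIs.

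Set against pericyte-like cells of the LAD library, smooth-muscle-like cells had 2 of 10 measured members higher and 6 lower (9.94% and 27.3% of all 9367 genes). Lama5 was 6.02-fold higher (3.57 to 10.5) and Lamb2 2.00-fold higher (1.62 to 2.46). At a limit of 5% mitochondrial UMIs the log2 ratio of Lamb2 was 0.55, short of 1.5-fold. The median mitochondrial share was 5.33% in smooth-muscle-like and 3.63% in pericyte-like cells of this library. Lamb1 was the lowest, at a ratio of 0.0975 (0.0462 to 0.182), followed by Nid1 at 0.296, Lama2 at 0.332 and Lama4 at 0.439. Agrn at 1.09 (0.749 to 1.56) and Lamc1 at 0.794 were between. In the undamaged tdTomato library 0 of 8 measured members were higher and 4 lower (15.3% and 31.8%), namely Lama4 at 0.298, Lamb1 at 0.303, Lama2 at 0.320 and Nid1 at 0.464. Lamb2 was at 1.30 there (0.825 to 2.09). The member medians were -0.79 and -0.82 on the log2 scale in these libraries, beside -0.23 and -0.27 over all measured genes.

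Since both genes of a pair are counted in the same cells, the ratio of their UMIs does not depend on how a class total is scaled, and it can be compared between classes. Lamb2 over Lamb1 was 17.5 (9.29 to 37.1) in smooth-muscle-like, 0.854 (0.705 to 1.03) in pericyte-like and 0.425 (0.395 to 0.458) in fibroblast-like cells after ligation. In undamaged tdTomato hearts it was 7.00 (3.32 to 17.0) in smooth-muscle-like, 1.63 (0.893 to 3.06) in pericyte-like and 0.437 in fibroblast-like cells. The 3 classes thus stood in the same order in both tdTomato libraries and their counting intervals did not overlap in either. Without the cells high in Dcn, the ratio in undamaged hearts was 18.7 (6.07 to 93.2, on 56 and 3 UMIs) in smooth-muscle-like and 2.07 (1.08 to 4.12) in pericyte-like cells, and after ligation it was 24.1 and 1.04. Citrine hearts gave 0.543 (0.436 to 0.672) in pericyte-like cells, or 0.824 (0.568 to 1.19) without those high in Dcn, and 0.401 in fibroblast-like cells. Agrn over Hspg2 was 1.12 in smooth-muscle-like, 0.656 in pericyte-like and 0.0407 in fibroblast-like cells after ligation, and 1.00, 1.4 and 0.0299 in those classes of undamaged tdTomato hearts. Citrine hearts gave 0.198 (0.137 to 0.280) in pericyte-like and 0.0386 in fibroblast-like cells, with 0.575 (0.344 to 0.942) in pericyte-like cells without those high in Dcn. Fibroblast-like cells of the PDGFRa library gave 0.0471. Lama5 over Lama4 was 1.46 in smooth-muscle-like and 0.107 in pericyte-like cells after ligation. Lama4 over Lama2 varied least, between 0.490 and 0.787 over all 9 sums.

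The study also asked what is different 7 days after infarction. In fibroblast-like cells of the LAD library against those of the undamaged tdTomato library, 1 of 9 measured members was higher and 0 lower, against 7.99% and 11.5% of all 12265 genes. Agrn was the one called, with 14.0 CPM after ligation and 8.79 CPM in undamaged hearts (1.59-fold, 1.22 to 2.1, on 202 and 78 UMIs). The abundant members were within 1.5-fold. Nid1 had 516.7 CPM after ligation and 523.9 CPM in undamaged hearts (0.986, 0.951 to 1.02), and Lamc1 had 421.6 and 442.9 CPM (0.952, 0.914 to 0.991). Hspg2 stood slightly higher after ligation, at 344.1 CPM against 293.6 CPM in undamaged hearts (1.17, 1.12 to 1.23). Lama2 (0.867), Nid2 (0.815), Lama4 (0.798), Lamb1 (0.740, 0.698 to 0.786) and Lamb2 (0.721, 0.659 to 0.789) stood lower after ligation than in undamaged hearts. At clustering resolution 0.5 the log2 ratios were 0.03 for Lama2, 0.13 for Nid2, -0.02 for Lamb1 and -0.17 for Lama4. The lower level of Lama2, Nid2 and Lamb1 thus depended on the clustering. Hspg2 was at 0.57 on that scale and setting. The median log2 ratio of the members was -0.21, beside -0.06 over all genes.

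In pericyte-like cells 4 of 10 measured members were higher after ligation and 0 lower, against 17.0% and 18.8% of all 8903 genes. The undamaged class holds 175 cells, and its sums are small. Nid1 had 301.3 CPM after ligation and 151.1 CPM in undamaged hearts (1.99-fold, 1.48 to 2.76, on 712 and 45 UMIs). Hspg2 had 63.9 CPM after ligation and 33.6 CPM in undamaged hearts (1.90-fold, 1.01 to 4.05, on 151 and 10 UMIs). Lamb1 had 101.5 CPM after ligation and 63.8 CPM in undamaged hearts, and the interval of its ratio just reached 1 (1.59-fold, 0.998 to 2.69). Lama5 was counted 21 times after ligation and 1 time in undamaged hearts (2.65-fold, 0.426 to 109.5). Nid1 is therefore the member whose interval stands clear of 1 by most. Lamc1 (1.24), Nid2 (1.13), Lama2 (0.938), Agrn (0.891), Lama4 (0.856) and Lamb2 (0.834) were between, all with intervals that held 1. At clustering resolution 0.5 the log2 ratios were 1.60 for Nid1, 1.62 for Lamb1, 0.63 for Lama2, 0.58 for Lama4 and -1.38 for Lama5. The values of these members thus depended on the clustering, with Nid1 and Lamb1 higher in both settings.

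With the cells high in Dcn left out, 2 members were called: Nid1, at 281.2 CPM after ligation and 133.2 CPM in undamaged hearts (2.11-fold, 1.51 to 3.03), and Lamb1 (1.61-fold, 0.949 to 2.93). Hspg2 was then 1.32-fold higher (0.664 to 2.97). In these cells Dcn itself had 267.4 CPM after ligation and 288.0 CPM in undamaged hearts.

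Smooth-muscle-like cells had 0 of 8 measured members called higher and 0 lower, against 17.4% and 15.0% of all 6678 genes. Of these, 7 ratios were above 1, led by Lama5 (1.47, 0.820 to 2.81), Agrn (1.45, 0.770 to 2.92) and Lamc1 (1.30, 0.910 to 1.88), and Lama2 was at 0.972. The intervals of all 8 held 1. With the cells high in Dcn left out, Nid1 (1.97, 1.16 to 3.55) and Hspg2 (1.75, 0.754 to 4.72) passed 1.5-fold. The member median was 0.36 on the log2 scale, beside 0.03 over all genes.

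**Figure D4:**
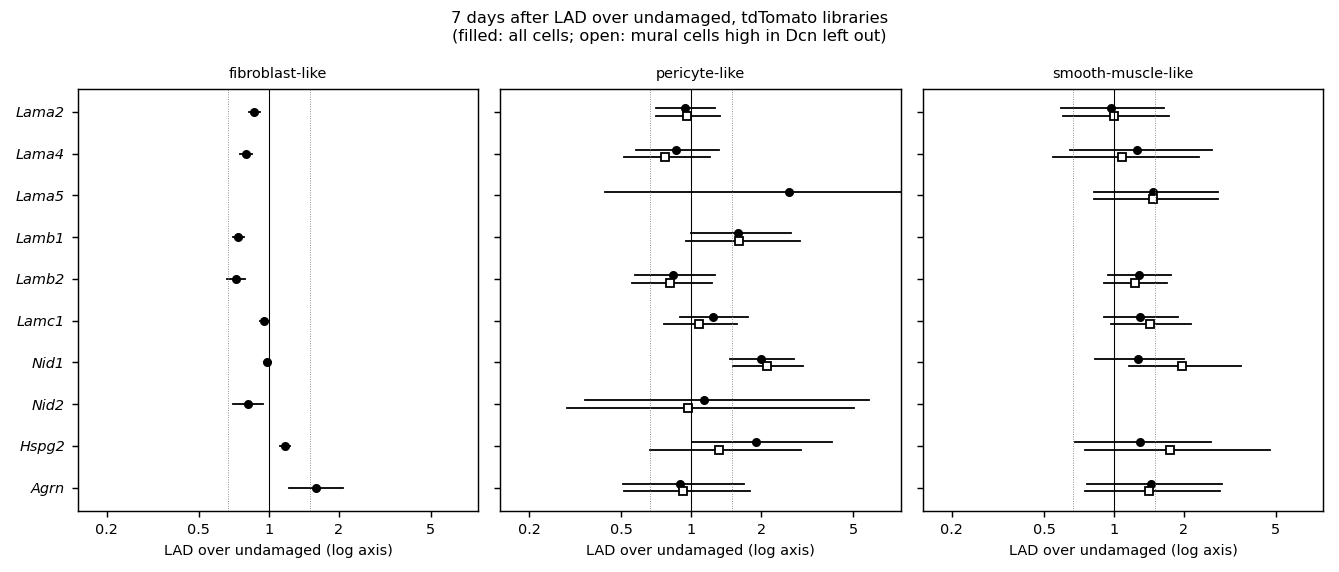
Ratio of CPM in the LAD library to that in the undamaged tdTomato library for each member with at least 20 UMIs in the 3 classes (log axis), with exact 95% counting intervals, of which that of Lama5 runs past the axis; filled circles are all cells, open squares leave out mural cells high in Dcn, and dotted lines mark 1.5-fold. With all cells Nid1 lies at 1.99 in pericyte-like cells and at 0.986 in fibroblast-like cells.

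Within the LAD pericyte-like class the members varied between its 3 clusters. The largest (488 cells) had 205.2 CPM of Nid1 and 55.3 CPM of Lamb1. A cluster of 273 cells led within its library by Rgs16, a regulator of G-protein signalling, had 356.6 CPM of Nid1 and 117.9 CPM of Lamb1, with counting intervals apart from those of the first. That cluster also had more Agrn, at 57.6 CPM (44.1 to 73.8) against 27.7 CPM (18.5 to 39.7), and more Lama5, at 13.9 CPM (7.80 to 23.0) against 2.86 CPM (0.590 to 8.37). It had less Lamb2, at 69.6 CPM against 111.6 CPM. Dcn was low in both, at 331.5 CPM in the Rgs16 cluster and 252.9 CPM in the largest. The 3rd cluster, of 37 cells, had 16420 CPM of Dcn and 4798 CPM of Rgs5, and with them 251.7 CPM of Hspg2, 402.7 CPM of Lamc1 and 474.0 CPM of Nid1. With the Rgs16 cluster left out, Nid1 was 1.69-fold higher after ligation than in undamaged hearts (1.23 to 2.36) and Agrn was at 0.612 (0.323 to 1.23). Hspg2 was then 2.50-fold higher (1.31 to 5.36), while Lamb1 (1.38) no longer passed 1.5-fold and Lama5 had too few UMIs for a call. The sum behind this Hspg2 ratio keeps the cluster of 37 cells with high Dcn and 251.7 CPM of Hspg2. In pericyte-like cells not high in Dcn, Hspg2 had 42.7 CPM after ligation and 32.4 CPM in undamaged hearts.

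Fibroblast-like cells were not uniform either. In the undamaged tdTomato library a cluster of 108 cells was led by Wif1, a secreted Wnt inhibitor. It had 15.3 CPM of Lamb1 (6.16 to 31.6), 45.95 CPM of Lamc1, 67.8 CPM of Nid1, 24.1 CPM of Lama4, 72.2 CPM of Lama2, 67.8 CPM of Hspg2 and 6.56 CPM of Nid2. Each of these levels was the lowest among 9 clusters. The share of all genes that were lowest in this cluster was not counted. Lamb2 was not low there, at 105.0 CPM (77.4 to 139.3) beside 99.8 CPM over all fibroblast-like cells of the library, and Agrn stood at 13.1 CPM. Between the lowest and the highest cluster of that library, Lamb1 varied 23.8-fold, Lamc1 15.7-fold, Lama4 11.2-fold and Nid1 10.1-fold, against 2.22-fold for Lamb2. The cluster had a median of 4140 UMIs per cell, above the 3662 of the class. In the citrine library a cluster of 648 cells led by Cytl1, Ahsg and Comp had 145.5 CPM of Lamb1, beside 404.1 CPM over the class, and 146.5 CPM of Lamb2, beside 161.8 CPM. Another of 816 cells, led by Comp, Dio2 and Ltbp2, had 97.7 CPM of Lamb1 and 231.4 CPM of Lamb2. A cluster of 699 cells led by Comp, C7 and Ahsg in the PDGFRa library had 161.8 CPM of Lamb1, beside 281.4 CPM over the class, and the lowest Hspg2 of 12 clusters, at 164.1 CPM. No cluster of the LAD library was led by Wif1. Its cluster of 130 cells, in which Pthlh, Cytl1 and Dio2 led, had the lowest Lamb1 (63.7 CPM), Lama4 (77.7 CPM), Nid1 (342.0 CPM) and Nid2 (15.5 CPM) of 9 clusters and the highest Lamb2 (104.1 CPM).

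The activated-like cluster of the LAD library (399 cells, led by Cthrc1, Thbs4 and Comp) held 98 of the 202 Agrn UMIs of its class. Agrn stood at 28.6 CPM there (23.2 to 34.9), the highest of 9 clusters, and at 5.57 CPM (2.78 to 9.96) in the Sca1-high cluster, the lowest. Lama2 at 139.3 CPM and Lamc1 at 297.8 CPM were lowest of the 9 in the activated-like cluster. With the activated-like clusters left out of both libraries, Agrn had 9.45 CPM after ligation and 9.07 CPM in undamaged hearts (1.04-fold, 0.764 to 1.43), so the call in fibroblast-like cells ended. The cluster of undamaged hearts classed as activated-like (236 cells, led by Cytl1, Comp and Cst6) had 6.68 CPM of Agrn (2.68 to 13.8). Activated-like clusters of the PDGFRa library (1554 and 1121 cells) had 17.0 and 18.4 CPM of Agrn, beside 14.5 CPM over the class. Of 12 clusters, that of 1554 cells had the lowest Lama2, Lamb1, Lamb2 and Lamc1, the last at 269.4 CPM. That of 1121 cells had the lowest Lama4, Nid1 and Nid2. Lamc1 was high in Sca1-high clusters, at 572.0 CPM in the LAD library and 719.2 CPM in the undamaged tdTomato library, the highest of 9 clusters in each.

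**Figure D5:**
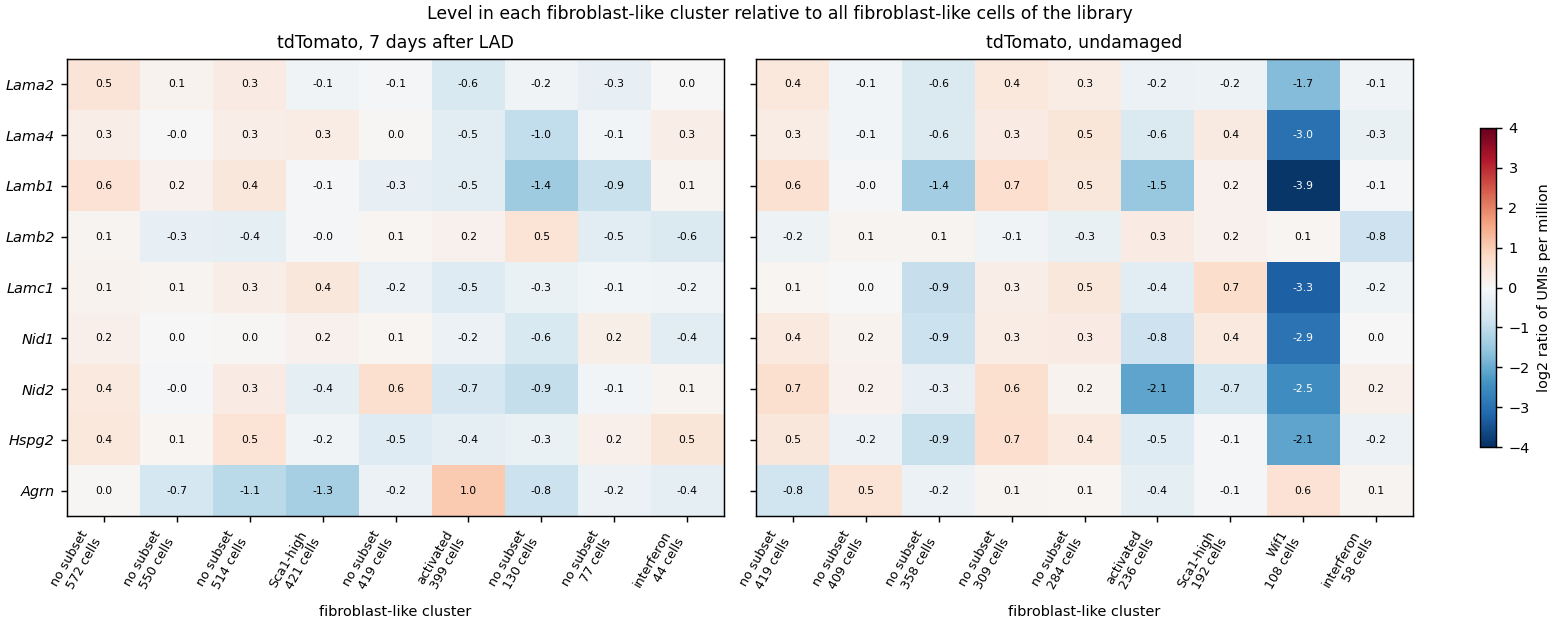
log2 ratio of CPM in each fibroblast-like cluster to that over all fibroblast-like cells of its library, for the LAD library (left) and the undamaged tdTomato library (right). The Wif1 cluster of 108 cells is the dark column, with Lamb1 at 15.3 CPM and Lamb2 at 105.0 CPM, and Agrn is highest in the activated-like cluster after ligation, at 28.6 CPM.

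Other genes of the sheet are given from lists of its collagens, chains, assembly proteins and receptors. Of 8 collagen genes measured in the LAD library, 3 were higher and 5 lower in pericyte-like than in fibroblast-like cells (26.9% and 18.6% of all genes). Col4a1 and Col4a2, whose products form the common collagen IV trimer, were higher, 2.02-fold and 2.33-fold, and Col18a1, the endostatin precursor, 3.03-fold. In undamaged tdTomato hearts Col4a1 was 1.62-fold and Col4a2 2.28-fold higher in pericyte-like cells, while in citrine hearts both were within 1.5-fold (1.05 and 1.33). Col15a1 was lower in each library (0.327, 0.161 and 0.355 in the LAD, undamaged tdTomato and citrine libraries). Of 6 or 7 measured assembly and binding proteins (Sparc, Bgn, the fibulins and their like), 0 were higher in pericyte-like cells in any of the 3 libraries, and 5, 5 and 4 were lower. No other laminin or netrin chain was called higher in pericyte-like cells in these libraries, and 3 of 4, 2 of 4 and 2 of 5 were lower. Over all genes of the 3 libraries, 26.9%, 32.2% and 22.3% were higher and 18.6%, 18.3% and 13.9% lower.

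Of the receptors, those past 1.5-fold in mural cells included some that bind laminin. Itga7, the integrin chain typical of muscle, was 54.4-fold higher in pericyte-like than in fibroblast-like cells after ligation (40.2 to 75.2), 119-fold in undamaged tdTomato hearts and 164-fold in citrine hearts. Bcam, a receptor for laminins that contain the Lama5 chain, was 17.1-fold, 21.6-fold and 18.1-fold higher in those libraries. In smooth-muscle-like against fibroblast-like cells Bcam was 52.6-fold higher after ligation (44.2 to 63.0) and 57.2-fold higher in undamaged hearts (44.4 to 74.5). Smooth-muscle-like cells also had more Bcam than pericyte-like cells, 3.08-fold after ligation (2.72 to 3.48) and 2.65-fold in undamaged hearts (1.99 to 3.57). Itga1, of the collagen-binding integrin, was 20.2-fold, 23.1-fold and 17.9-fold higher in pericyte-like cells of the LAD, undamaged tdTomato and citrine libraries. Dag1, which encodes dystroglycan, was within 1.5-fold in each library, with pericyte-like over fibroblast-like ratios of 1.07 (0.935 to 1.22), 1.00 (0.688 to 1.42) and 1.08 (0.931 to 1.25). Over the list, 6 of 13, 5 of 13 and 6 of 17 measured receptors were higher in pericyte-like cells and 5, 3 and 4 lower. The shares of all genes in the LAD, undamaged tdTomato and citrine libraries were 26.9%, 32.2% and 22.3% higher and 18.6%, 18.3% and 13.9% lower. Of the genes that glycosylate alpha-dystroglycan, at which agrin and Lama2 chains bind, 1, 2 and 1 of 5 measured were higher and 1, 0 and 0 lower, near the same shares.

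After ligation against undamaged hearts, the lists were counted the same way. In pericyte-like cells 3 of 5 measured collagens and 5 of 6 assembly proteins were higher and 0 lower, beside 17.0% of all genes higher and 18.8% lower. Col18a1 was counted 119 times after ligation and 1 time in undamaged hearts (15.0-fold, 2.64 to 597), Col15a1 was 1.87-fold higher and Col4a2 1.66-fold. Bgn, a small proteoglycan, was 3.30-fold higher (2.85 to 3.85) and Pxdn, the enzyme that crosslinks collagen IV, 2.74-fold (1.03 to 10.3). In smooth-muscle-like cells 5 of 5 collagens and 4 of 5 assembly proteins were higher and 0 lower, beside 17.4% and 15.0% of all genes, with Sparc at 1.97 (1.80 to 2.15) and Col4a1 at 1.60 (1.13 to 2.30). In fibroblast-like cells Col4a2 was 1.62-fold higher and Sparc, a collagen chaperone, 1.77-fold (1.75 to 1.79), while Col4a3 (0.371) and Col4a4 (0.602) were lower. Itga7 was lower after ligation in pericyte-like cells (0.629, 0.496 to 0.805), one of 4 receptors lower and 0 higher of 11 measured, beside the 18.8% and 17.0% of all genes.

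The genes whose levels ran most like those of a member were sought over the 9 class sums, by Pearson's r of log2(CPM + 1) among genes of at least 50 CPM in one sum. The 9 sums share libraries and differ in depth, so r is a description. Lama5 ran most like Ehd4 (r = 0.986), Tpm1 (0.984) and Myom1 (0.983). Nid2 ran with the fibroblast genes Dpt (0.992), Ces1d (0.991) and Pdgfra (0.988), and Hspg2 with Mfap5 (0.993), Ptgis and Arap1. Lamb1 ran with Col6a2, a chain of collagen VI (0.983), and Nid1 with Slc44a1 (0.987), Thbs2 and Nav1. Lamc1 was closest to Kcnk2 and Man1a (0.993 each), Lama4 to Cd302 (0.993) and Lama2 to Lamp2 (0.984). Agrn was closest to Epb41l1 (0.976). Lamb2 had no close partner, with 0.821 to mt-Nd2 as its best.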

How the data were processed

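Each of the 4 libraries is a matrix of UMI counts per gene and cell barcode, deposited by the authors as raw whole numbers. Per the labels, cDNA was made with the Chromium single cell 3′ kit, sequenced on a NextSeq 500 and aligned with Cell Ranger to a modified mm10 genome. Cell Ranger 3.0.2 is named in the headers of the citrine and PDGFRa files, and Seurat 2.1 in the submitters' processing notes.

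Barcodes under 500 genes or 1000 UMIs, or above 10% mitochondrial UMIs, were removed. Clustering was done separately in each library (counts scaled to 10000 UMIs, 2000 variable genes, 30 principal components, 20 neighbours, Leiden resolution 1), with 55 basement membrane and receptor genes left out. Clusters were classed by 16 marker lists, with at least 3 markers in at least 25% of their cells. The members and lists were chosen with earlier results of these data known. Named genes are all 10 members, genes of the other lists past 1.5-fold, and the 3 genes most like each member. Outside this rule, Dag1, Postn, Rgs16 and the endothelial and cell class markers were named after their values were seen. Class sums of UMIs were compared as ratios of CPM with exact conditional binomial intervals, and a sum of 0 was taken at 3 counts.

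In the citrine library, cells with at least 10 hashtag UMIs and a top hashtag at least 3 times the next were assigned to hearts, which left 3787 cells with none. UMIs were summed per heart and class and tested with edgeR's quasi-likelihood test (TMM scaling). The SE given with a log2 fold change was derived from that test, as the size of the change divided by the square root of its F statistic. Since both classes come from the same 3 animals, the heart entered as a block. Depth limits the rare genes: the undamaged tdTomato library has 9885698 UMIs, the LAD library 18028737, the citrine library 97467582 and the PDGFRa library 122716283.

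Scrublet marked 0.915% of LAD cells, 0.108% of undamaged tdTomato cells, 0% of citrine cells and 0.008% of PDGFRa cells. In 3 of the 4 libraries it cannot be taken to have worked, so doublets were kept, and leaving out the highest 5% of its scores was tried instead. The ratio and edgeR steps were tested on simulated counts. Alternatives were other resolutions (0.5 and 2), a limit of 5% mitochondrial UMIs, minimum sums of 0 and 100 UMIs, a 2-fold threshold, cell means, size factors, all kept cells, DESeq2, no filter, no heart block, a stricter hashtag rule and each heart left out. After seeing the data, leaving out the highest Scrublet scores, the Rgs16 cluster and mural cells high in Dcn were added. Tools were R 4.3.3, edgeR 4.0.16, limma 3.58.1, DESeq2 1.42.0, Python 3.11.15, scanpy 1.11.5, leidenalg 0.10.2, igraph 0.11.9, scikit-learn 1.9.0, numpy 2.4.6, scipy 1.17.1, pandas 2.3.3 and matplotlib 3.10.9.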

Additional observations from a re-analysis of the deposited data

How the results depend on the processing

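Of the recomputed member values, 901 stayed within their 95% counting interval or on their side of the test, 86 moved past that interval, 2 gained a call, 3 lost one and 5 that were called or tested turned sign. Another 32 turned sign from values within 1.5-fold, 7 of them at resolution 0.5 (Lama2 after ligation in pericyte-like cells moved to 0.63 from -0.09) and 7 with all kept cells. The 5 were Lama5 after ligation in pericyte-like cells at resolution 0.5 (log2 ratio -1.38), Lamb1 (-0.51) and Nid1 (-0.10) when all kept cells stood in for the pericyte-like class, and Nid2 in citrine hearts without heart 1 (0.03) or heart 2 (0.85), over a range of -1.05 to 0.85. The cause was not tested, except that all kept cells are mostly fibroblast-like. Counts of members called moved as follows. After ligation in fibroblast-like cells, 0 were higher with cell means, at 2-fold or without activated-like clusters, 2 with all kept cells, and 1 was lower with no filter. In pericyte-like cells 2 were higher with Scrublet-marked cells or its highest 5% of scores left out, with all kept cells, without the Rgs16 cluster or without cells high in Dcn, 1 was higher at 2-fold, and 1 was lower at resolution 0.5 or without the Rgs16 cluster. In smooth-muscle-like cells 3 were higher at 5% mitochondrial UMIs, 2 with all kept cells, without the highest 5% of scores or without cells high in Dcn, and 1 was lower with no filter. Pericyte-like over fibroblast-like, LAD library: 1 higher at 100 UMIs, without the highest scores, the Rgs16 cluster or cells high in Dcn, and 3 lower at 2-fold; undamaged tdTomato: 0 higher at 100 UMIs and 2 with no filter; citrine: 1 higher at 100 UMIs and 1 lower at 2-fold. Smooth-muscle-like over fibroblast-like, undamaged: 0 higher at 100 UMIs and 2 with no filter. Smooth-muscle-like over pericyte-like: 1 higher at 5% mitochondrial UMIs, 100 UMIs or 2-fold in the LAD library, and 0 lower at 100 UMIs and 1 higher with no filter in the undamaged one. In the citrine hearts 1154 genes were called with the heart as a block, 1966 with no replicate block (1 member higher), 565 with DESeq2, and 617 to 939 with each heart left out (5 to 6 members lower, 0 higher). Leaving out Scrublet-marked cells was not run for the citrine library, where none were marked. Undamaged mural sums, of 175 and 169 cells, are small, and each side of the contrast with ligation is 1 pooled library.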

Other observations

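The PDGFRa library could not be split by condition, since the labels do not tie its 4 hashtags to undamaged or ligated hearts. Its fibroblast-like cells carried hashtags 1 to 4 in 2871, 3576, 1195 and 1760 cells. Over hashtags 1, 2, 3 and 4, Lamb1 stood at 208.1, 208.1, 442.5 and 433.3 CPM. Lamc1 stood at 486.2, 509.9, 810.4 and 826.6 CPM over the same hashtags, and Nid1 at 737.3, 740.6, 938.3 and 1113 CPM. Lama2 had 274.8, 276.1, 442.9 and 409.5 CPM, Lama4 128.1, 140.4, 248.1 and 234.7 CPM, and Hspg2 276.4, 272.3, 391.0 and 384.2 CPM. Lamb2 had 82.3, 86.0, 120.8 and 130.2 CPM. Agrn had 15.0, 16.3, 11.2 and 12.2 CPM. Postn, a gene of activated fibroblasts, had 3443, 3884, 216.8 and 255.6 CPM. For the genes listed here, the values of hashtags 1 and 2 lie close together and apart from those of 3 and 4. Agrn and Postn lie on the other side from the rest. How many of all genes part the same way was not counted, so the split cannot be read as particular to the members.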
